A study of Mus musculus with 2 samples.

Results

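The 34 genes described here encode heat shock proteins, other molecular chaperones and regulators of the unfolded protein response. They were taken by symbol from a list of 31053 genes, and each had a row in both count matrices. Sorted mainly by where the protein works, 12 were cytosolic, 3 mitochondrial and 15 resident in the endoplasmic reticulum (ER). The other 4 were grouped as regulators of the unfolded protein response (UPR). Of these 4, Herpud1 encodes an ER membrane protein and is not counted in the ER group.

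Chaperones bind unfolded or misfolded proteins and help them reach their native shape. In the cytosol, the Hsp70 and Hsp90 machines work with J-domain co-chaperones, and heat shock factor 1 raises their transcription when unfolded protein builds up. In the ER, the Hsp70 protein BiP, the Hsp90 protein Grp94, the lectin chaperones and the protein disulfide isomerases fold secreted and membrane proteins, and the sensors Ire1, Perk and Atf6 raise their transcription through Xbp1, Atf4 and cleaved Atf6. Macrophages secrete much protein and rely on this system.

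Chaperone transcripts were compared in cultures of bone marrow derived macrophages from wild-type 129Sv mice, in 1 library of cells given Tamm-Horsfall protein (THP, or uromodulin, a protein of the kidney tubule) and 1 library of cells given vehicle. Bone marrow cells of both groups grew in 10% FBS with 50 ng/ml M-CSF, the cytokine that directs their differentiation into macrophages. On day 7 a truncated THP that does not polymerize (1 µg/ml) was added to the first culture and 5% dextrose to the other, for 18 h. Both cultures were detached with TrypLE and depleted of dead cells before droplet capture. How many mice were used, their age and any pooling are not stated in the labels. With 1 library per group there was no replicate check and no test: treatment, culture dish and library preparation cannot be told apart, and every interval below is a 95% interval that covers counting error only.

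After filtering, 12123 of 13193 THP barcodes and 10978 of 11584 vehicle barcodes were kept, with 224825484 and 207662132 unique molecular identifiers (UMIs, each standing for 1 captured RNA molecule) and medians of 16113 and 17223 per cell. The libraries shared 38 kept barcodes. Among the 8012 genes that reached 10 CPM (UMIs per 1e+06 UMIs of the library) in at least 1 library, the median log2 ratio of CPM + 1, THP over vehicle, was -0.18. It became 0.10 with TMM scaling factors, so each ratio below is best read against that median. Longer genes had lower ratios (Spearman's rho -0.55 across 8011 genes, which are not independent replicates). The 9 macrophage markers summed to 1659 CPM with THP and 1385 with vehicle, with none at 0. The corresponding sums were 4676 and 7068 for immature neutrophil granule genes, 2774 and 4575 for myeloid progenitor genes, 799 and 1300 for monocyte genes and 1662 and 2056 for cycling genes. The other sums were 448 and 550 for mature neutrophils, 1552 and 1969 for MHC class II antigen-presenting cells, and 564 and 708 for osteoclast-like cells. Stromal markers summed to 62.1 CPM with THP and 236 with vehicle. Mast cell, B-lineage, T or NK and erythroid markers each summed to under 70 CPM in both libraries. Markers of several cell types were thus present. The values within marker gates and a weighting of both libraries to the same mix of gates bear on this mix: with the same mix, the ER and cytosolic medians given below were -0.28 and -0.08.

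The promoters of 27 of the 34 genes matched RefSeq sequences (GRCm38.p6), and 250 bases before each annotated start were searched on both strands for short motifs tied to the heat shock and ER stress pathways. The 6 windows shown here belong to the genes on which the results turn, printed 5′ to 3′ along the gene's strand, with every match in capitals. The first pair, Hspa1a and Hspa1b at chr17:34972157-34972406 and chr17:34959239-34959488 (both minus strand), encode the stress-inducible cytosolic Hsp70, and their capitals mark a heat shock element unit, GAANNTTC.
Hspa1a: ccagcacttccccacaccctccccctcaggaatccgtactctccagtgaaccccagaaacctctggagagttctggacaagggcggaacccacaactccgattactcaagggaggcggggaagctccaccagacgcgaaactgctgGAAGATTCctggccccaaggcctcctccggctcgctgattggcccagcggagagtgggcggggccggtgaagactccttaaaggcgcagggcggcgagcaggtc
Hspa1b: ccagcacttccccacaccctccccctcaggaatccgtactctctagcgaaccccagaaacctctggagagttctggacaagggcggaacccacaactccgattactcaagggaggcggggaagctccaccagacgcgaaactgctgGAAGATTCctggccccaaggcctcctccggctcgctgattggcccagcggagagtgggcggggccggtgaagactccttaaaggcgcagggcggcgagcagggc
The windows differed at 3 of 250 bases (98.8% identity), and the motif ended 97 bases before the start in both. Hspe1 at chr1:55087898-55088147 (plus strand) encodes the mitochondrial co-chaperonin Hsp10, and its capitals mark overlapping units GAANNTTC and TTCNNGAA. The annotated span of Hspd1, its Hsp60 partner on the opposite strand, covers this window, with 1 Hspd1 start inside it, 216 bases before the Hspe1 start, and another 95 bases past the Hspe1 start.
Hspe1: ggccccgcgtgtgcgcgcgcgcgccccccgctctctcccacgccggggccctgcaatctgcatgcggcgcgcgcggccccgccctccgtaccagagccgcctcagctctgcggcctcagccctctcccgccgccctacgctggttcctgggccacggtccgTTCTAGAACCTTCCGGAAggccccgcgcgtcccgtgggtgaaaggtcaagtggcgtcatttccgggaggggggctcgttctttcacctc
Hspa5 at chr2:34771840-34772089 (plus strand) and Hsp90b1 at chr10:86705445-86705694 (minus strand) encode BiP and Grp94, and their capitals mark the ER stress response element, CCAAT and CCACG separated by 9 bases.
Hspa5: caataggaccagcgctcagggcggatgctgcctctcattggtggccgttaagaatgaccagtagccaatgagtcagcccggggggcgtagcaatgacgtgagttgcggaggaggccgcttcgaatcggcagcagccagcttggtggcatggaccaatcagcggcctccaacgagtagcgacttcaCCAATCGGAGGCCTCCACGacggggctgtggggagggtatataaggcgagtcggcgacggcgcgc
Hsp90b1: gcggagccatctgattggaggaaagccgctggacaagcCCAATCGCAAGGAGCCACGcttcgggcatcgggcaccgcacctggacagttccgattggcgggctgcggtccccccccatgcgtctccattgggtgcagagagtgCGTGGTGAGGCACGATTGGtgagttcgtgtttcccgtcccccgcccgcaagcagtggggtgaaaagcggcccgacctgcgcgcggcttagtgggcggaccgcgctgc
Herpud1 at chr8:94386179-94386428 (plus strand) encodes an ER membrane protein of the degradation machinery, and its capitals mark the amino acid response element TGATGCAA, read here on the other strand, and the second ER stress response element, ATTGG and CCACG separated by 1 base.
Herpud1: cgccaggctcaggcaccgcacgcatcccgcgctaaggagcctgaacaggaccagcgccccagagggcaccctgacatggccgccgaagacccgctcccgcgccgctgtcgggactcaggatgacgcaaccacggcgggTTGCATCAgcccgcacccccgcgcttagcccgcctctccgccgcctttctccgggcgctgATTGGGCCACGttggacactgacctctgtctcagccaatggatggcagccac

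The ER stress response element was present in 7 of 12 matched ER chaperone promoters, namely Hspa5, Hsp90b1 (with both copies shown above), Dnajc3, Calr, Canx, Pdia6 and Creld2, against 0.13% of 27025 genes in the same window. The heat shock unit GAANNTTC was found in 5 of 9 cytosolic members (Hspa1a, Hspa1b, Hspb1, Dnaja1 and Dnajb6), in both matched mitochondrial members and in 0 of 12 ER members, against 7.73% of genes. TTCNNGAA, held by 8.11% of genes, was found in Hsph1, Dnajb6, Hspd1 and Hspe1. The Hspd1 and Hspe1 windows overlap, so for both units their matches are the same stretch of bases, counted for each gene. The window of the other Hspd1 start had 0 matches to either unit. Among the members, the second ER stress response element was found in Herpud1 alone, and 10 of the 27025 genes (0.037%) had it. TGATGCAA, held by 0.918% of genes, was likewise found in Herpud1 alone. TGACGTGG, the UPR element held by 0.603% of genes, was found in 0 members. A match describes these letters and does not show that a factor was bound.

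By the median gene, the ER chaperones were lower relative to the cytosolic heat shock proteins in the THP library. The median log2 ratio was -0.28 over the 15 ER chaperones and -0.05 over the 9 cytosolic members that reached 10 CPM, a difference of -0.23. The means lay closer together, at -0.24 for the ER group and -0.17 for the cytosolic group, a difference of -0.071. Herpud1, an ER membrane protein with a ratio of 0.87, is in neither group, and including it would raise the ER mean. Hspa4 (-0.68) and Hsph1 (-0.49) had the lowest ratios of the cytosolic group. Of these members, 5 of 15 ER and 7 of 9 cytosolic genes lay above the median of all genes. The groups overlapped, with ER ratios from -0.67 to 0.26 and cytosolic ratios from -0.68 to 0.02. The mitochondrial median was -0.11 over 3 genes and that of the UPR regulators 0.23 over 4, and Herpud1 had the highest ratio of the 31 members measured at 10 CPM or more.

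Few members differed widely. At 1.5-fold or more, 1 of 31 was higher with THP (Herpud1) and 2 were lower (Hspa4 and Hyou1), beside 2.33% of all 8012 genes higher and 17.3% lower. At 2-fold or more the count was 0 in both directions, against 0.911% and 2.97% of all genes. The counts at 1.5-fold depended on scaling: with TMM factors 1 member (Herpud1, log2 ratio 1.15) was higher and 0 lower, beside 6.86% and 5.8% of all genes, and with RLE factors 1 and 0, beside 6.65% and 5.92%. With correction for transcript length 1 was higher and 0 lower, beside 4.46% and 4.78% of all genes. With library totals the share of members higher was close to that of all genes and the share lower was below it, and under all 3 alternatives both shares were below.

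**Figure D1:**
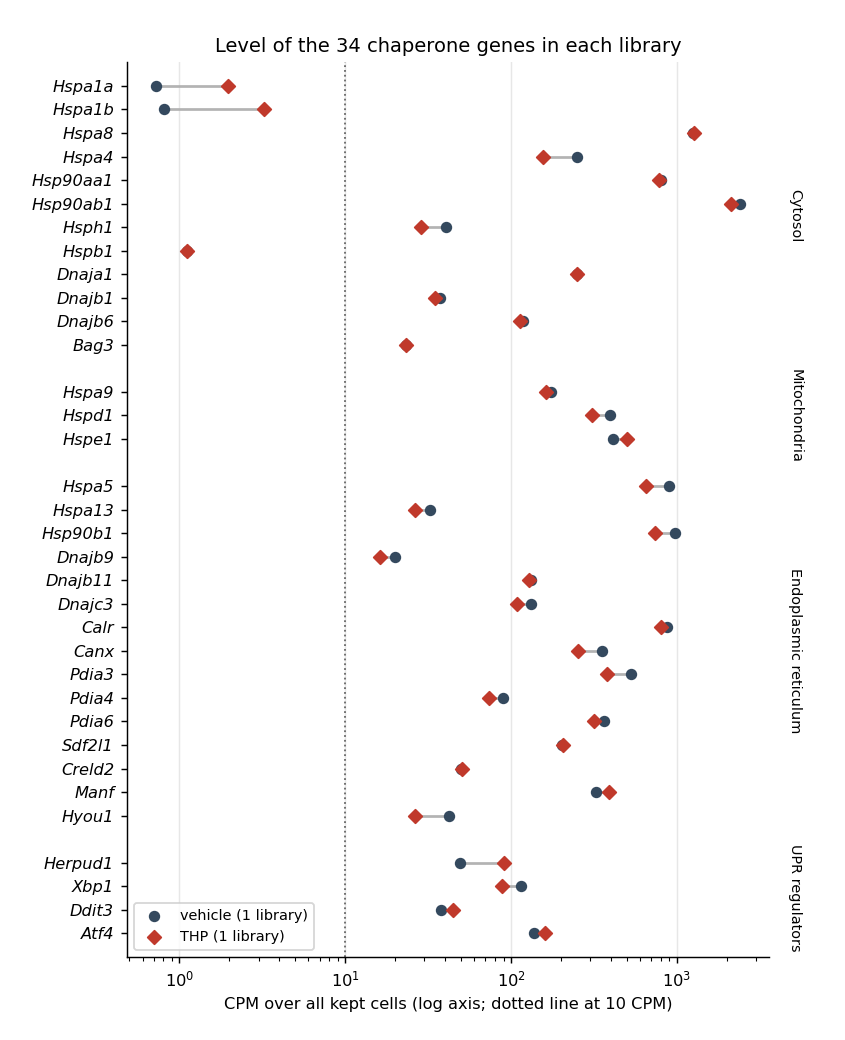
CPM of each of the 34 genes over all kept cells of the vehicle library (circles) and the THP library (diamonds), on a log axis and grouped by compartment, with a dotted line at 10 CPM. The symbols lie close together for most genes, with wider gaps for Hspa1a, Hspa1b, Hspa4, Hyou1 and Herpud1.

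In the cytosol, the abundant chaperones Hspa8, Hsp90aa1 and Hsp90ab1 differed little. Hspa8 (Hsc70) stood at 1271 CPM with THP (interval 1267 to 1276) and 1254 with vehicle (1250 to 1259), a log2 ratio of 0.02. The Hsp90 genes Hsp90aa1 and Hsp90ab1 gave 777 against 802 and 2116 against 2392 CPM, with ratios of -0.05 and -0.18, the latter at the median of all genes. The J-domain co-chaperones, which hand substrates to Hsp70, were close to equal as well. Dnaja1 had 250 and 251 CPM, Dnajb1 34.8 and 37.1, and Dnajb6 114 and 118. Bag3, a nucleotide exchange factor that links Hsp70 to autophagy and is a target of heat shock factor 1, had 23.2 CPM (22.6 to 23.8) with THP and 23.3 (22.7 to 24.0) with vehicle.

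Hspa4 and Hsph1, of the Hsp110 family that releases nucleotide from Hsp70, were lower with THP. Hspa4 had 156 CPM (154 to 158) with THP and 251 (249 to 254) with vehicle, 1.61-fold lower (1.59 to 1.63). Hsph1 had 28.5 CPM (27.8 to 29.2) against 40.4 (39.5 to 41.2), a log2 ratio of -0.49. Hspa4 remained below 0 under all 9 alternatives, with log2 ratios from -0.70 to -0.35, and Hsph1 with ratios from -0.52 to -0.13, the ends nearest 0 coming from correction for transcript length.

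The stress-inducible Hsp70 genes were rare in both libraries and more frequent with THP. Hspa1a had 439 UMIs with THP (1.95 CPM, 1.77 to 2.14) and 150 with vehicle (0.722 CPM, 0.611 to 0.848), a 2.70-fold difference (2.24 to 3.28). Hspa1b had 724 UMIs (3.22 CPM, 2.99 to 3.46) and 167 (0.804 CPM, 0.687 to 0.936), a 4.0-fold difference (3.38 to 4.77). Among 3495 genes of 1 to 10 CPM, 1.69% were at least 2-fold higher with THP and 11.2% at least 2-fold lower. These near-identical genes share sequence, so UMIs may have been assigned from 1 copy to the other or dropped, and their sum, 1163 UMIs with THP and 317 with vehicle, is the safer value.

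These UMIs were spread thinly over many cells. At least 1 UMI of Hspa1a or Hspa1b was found in 855 THP cells and 251 vehicle cells, and 194 and 24 cells had 2 or more. After thinning every cell to 5000 UMIs, Hspa1b was seen in 1.45% of cells with THP (1.22 to 1.7) and 0.51% with vehicle (0.37 to 0.68), against 4.64% and 1.27% before thinning, which left out 1958 and 1966 shallower cells. These shares rest on counts near 1 UMI per cell, RNA free in the droplets was not removed, and no gate could be taken to lack Hsp70. A single vehicle cell of 6205 UMIs held 32 of the 317 UMIs (10.1%). Without the cell richest in each gene in each library, an alternative chosen after seeing the data, the differences were 3.01-fold for Hspa1a and 4.34-fold for Hspa1b. The log2 ratio of CPM + 1 was 0.78 for Hspa1a and 1.23 for Hspa1b. With equal weight per cell it was 0.39 and 1.06, and with equal weight and without the richest cells, also chosen after seeing the data, 0.58 and 1.24.

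Within the macrophage gate, 377 of 3297 THP cells (11.4%) and 79 of 2076 vehicle cells (3.81%) carried a UMI of either gene. Carrying cells were deeper than the rest, with medians of 29956 against 20643 UMIs with THP and 32463 against 22383 with vehicle. In the THP library, each of the other cytosolic members had overlapping intervals in carrying and other macrophage-gate cells: Dnajb1 had 35.7 (32.6 to 39.1) and 35.2 CPM (33.8 to 36.5), and Hspa8 1281 (1262 to 1301) and 1254 (1246 to 1262). Bag3, with 32.7 (29.7 to 35.9) and 29.0 CPM (27.7 to 30.2), and Hsph1, with 31.1 (28.2 to 34.3) and 28.2 (27.0 to 29.5), were slightly higher in carrying cells. In the vehicle library 4 cytosolic members were higher in carrying cells, with intervals that did not overlap. They were Hsp90ab1, with 2343 (2285 to 2401) and 2151 CPM (2139 to 2164), Dnaja1, with 267 (248 to 288) and 233 (229 to 237), Hspa8, with 1388 (1344 to 1434) and 1328 (1318 to 1338), and Hsp90aa1, with 763 (730 to 797) and 723 (715 to 730). Of the ER members, Hspa5, Hsp90b1, Dnajc3, Pdia6 and Sdf2l1 were lower in carrying cells with THP beyond these intervals, and with vehicle Hsp90b1 was lower and Dnajb9 higher.

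Of 12 immediate early genes, 7 were higher in carrying cells with THP, with intervals that did not overlap: Fos, Junb, Egr1, Ier3, Dusp1, Zfp36 and Btg2. Egr1 had 13.2 CPM (11.3 to 15.3) in carrying cells and 7.76 (7.13 to 8.43) in the others. With vehicle the intervals of all 12 overlapped, and Egr1 stood the other way, at 4.85 (2.58 to 8.3) in carrying cells and 8.69 (7.9 to 9.54) in the others. The share of all genes with such gaps is not given, for these genes or for the chaperone members above. The vehicle intervals also rest on 79 carrying cells, against 377 with THP. The part of the immediate early genes in the Hsp70 result was not tested.

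Hspb1, the small heat shock protein Hsp27, was a stromal transcript in these cultures. It had 250 UMIs with THP and 232 with vehicle, of which 88.0% and 94.4% came from the 72 and 68 cells of the stromal gate. Its level there was 126 CPM (110 to 144) and 78.5 CPM (68.5 to 89.6). In each library 1 stromal-gate cell held a large part of the UMIs, 48 (19.2%) with THP and 49 (21.1%) with vehicle. The gate is also below the minimum of 100 cells used for ratios. The macrophage gate held 7 and 1 of its UMIs, so the overall level of 1.11 and 1.12 CPM is mostly that of stromal-gate cells. The stromal collagen and matrix markers themselves summed to 62.1 CPM with THP and 236 with vehicle.

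The mitochondrial chaperonin pair, transcribed in opposite directions from the nearby starts described above, lay on opposite sides of 0 over all kept cells. Hspd1, the Hsp60 barrel, had 308 CPM (305 to 310) with THP and 396 (393 to 398) with vehicle, a log2 ratio of -0.36. Hspe1, its Hsp10 lid, had 500 CPM (497 to 503) and 410 (408 to 413), a ratio of 0.28. Hspe1 stayed above 0 and Hspd1 below 0 under all 9 alternatives, and came nearest to it at 0.15 with length correction and -0.08 with TMM factors, respectively. Hspa9, the mitochondrial Hsp70 that pulls proteins through the inner membrane, had 163 (161 to 164) and 175 CPM (173 to 177), a ratio of -0.11. In the immature granule neutrophil gate all 3 mitochondrial members, Hspd1 among them, were above 0, from 0.20 to 0.78.

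In the ER, BiP, Grp94 and the exchange factor Hyou1 were lower with THP. Hspa5 (BiP), which binds nascent chains and holds the stress sensors inactive, had 655 CPM (651 to 658) with THP and 891 (887 to 895) with vehicle, a log2 ratio of -0.44. Hsp90b1 (Grp94), needed for the folding of Toll-like receptors and integrins, had 733 (729 to 736) and 970 (966 to 974), a ratio of -0.40. Hyou1, the Hsp110-type exchange factor of BiP, had 26.2 (25.5 to 26.8) and 42.3 (41.4 to 43.2), 1.61-fold lower with THP (1.56 to 1.67). The minor ER Hsp70 Hspa13 (26.4 and 32.4 CPM) and the BiP co-chaperones Dnajb9 (16.3 and 20) and Dnajc3 (108 and 132) had ratios of -0.28, -0.28 and -0.29. With correction for transcript length, Hspa5, Hsp90b1, Hyou1 and Dnajb9 stayed below 0, at -0.20, -0.21, -0.29 and -0.20, while Hspa13 and Dnajc3 turned to 0.0068 and 0.10. Dnajb11, another J-domain partner of BiP, was close to equal at 129 and 131 CPM.

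The lectin chaperones and disulfide isomerases, which fold glycoproteins and form their disulfide bonds, differed among themselves. Canx, the membrane-bound lectin calnexin, had 253 CPM (251 to 255) with THP and 351 (348 to 353) with vehicle, a log2 ratio of -0.47. Its soluble relative Calr had 806 (802 to 810) and 875 (871 to 879), a ratio of only -0.12, above the median of all genes. Pdia3, the isomerase that works with both lectins, had 376 (374 to 379) and 528 (525 to 531), a ratio of -0.49. Pdia4 and Pdia6 had 74.0 against 89.6 and 317 against 361 CPM, with ratios of -0.27 and -0.19.

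The soluble ER proteins Manf, Sdf2l1 and Creld2 had ratios above 0. Manf, a secreted neurotrophic factor held in the ER by BiP, had 388 CPM (385 to 391) with THP and 324 (321 to 326) with vehicle, a log2 ratio of 0.26, and it was the highest of the ER group. Sdf2l1, a partner of BiP and Dnajb11, had 207 (205 to 209) and 202 (200 to 204), and Creld2, a soluble ER stress protein, 50.7 (49.7 to 51.6) and 49.8 (48.8 to 50.7). Their ratios of 0.03 and 0.03 turned to -0.09 and -0.06 with correction for transcript length, while Manf remained at 0.31. ER members with the ER stress response element had a median ratio of -0.29 over 7 genes, from -0.47 to 0.03, and those without it -0.27 over 5, from -0.49 to 0.03, so the ranges covered each other.

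The UPR regulators split. Herpud1, which assembles the ER degradation complex and is a target of both Atf6 and Perk signalling, had 90.9 CPM (89.7 to 92.2) with THP and 49.2 (48.3 to 50.2) with vehicle, 1.85-fold higher (1.80 to 1.89), and its log2 ratio of 0.87 lay between 0.72 and 1.15 under all 9 alternatives. Atf4, the transcription factor of the integrated stress response, had 161 (159 to 163) and 137 CPM (135 to 139), a ratio of 0.23. Ddit3 (Chop), a target of Atf4 that promotes cell death, had 44.8 (43.9 to 45.7) and 37.9 (37.1 to 38.7), a ratio of 0.24 that became -0.08 when every cell had equal weight. Xbp1, whose RNA is spliced by Ire1, had 88.4 (87.1 to 89.6) and 114 (113 to 116), a ratio of -0.37. The counts do not separate spliced from unspliced Xbp1.

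**Figure D2:**
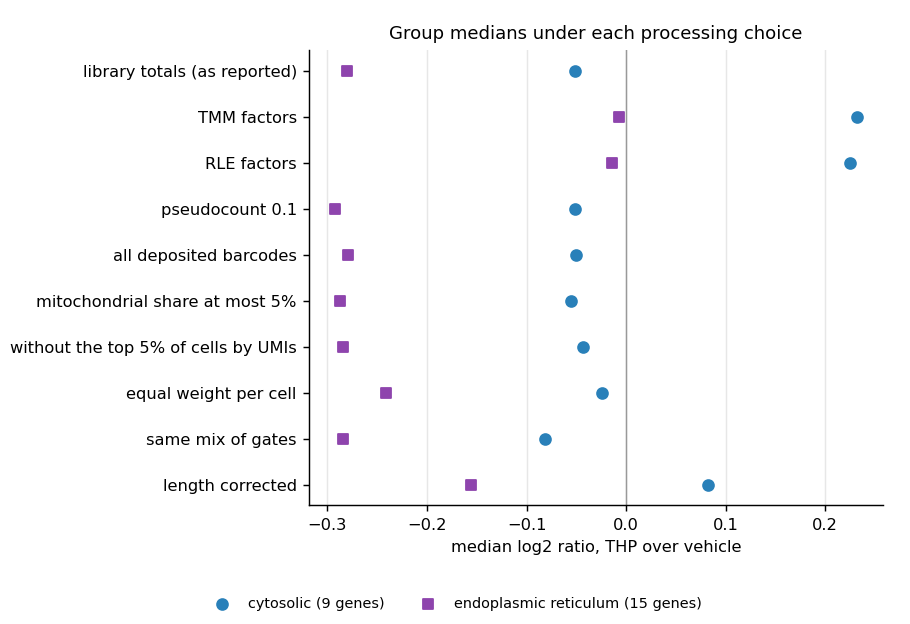
Median log2 ratio of CPM, THP over vehicle, of the 9 measured cytosolic genes (circles) and the 15 ER genes (squares), under the reported scaling by library totals and under each of 9 alternative choices listed on the vertical axis. Both medians shift together with the scaling, and the ER median lies left of the cytosolic median in every row, by 0.20 or more. TMM and RLE factors move both medians almost equally, so the gap could hardly change in those rows.

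Other genes of the same pathways were taken from fixed lists. Of 23 UPR sensors and ER quality control genes measured at 10 CPM or more (29 symbols listed), 0 were at least 1.5-fold higher and 5 at least 1.5-fold lower with THP, with a median log2 ratio of -0.21. These values were near those of all genes, of which 2.33% were higher and 17.3% lower, with a median of -0.18. The 5 included all the sensors on the list. Ern1 (Ire1) had 6.89 CPM (6.55 to 7.24) with THP and 13.3 (12.8 to 13.8) with vehicle, a ratio of -0.86. Eif2ak3 (Perk) had 10.0 (9.62 to 10.4) and 17.9 (17.3 to 18.4), and Atf6 28.6 (27.9 to 29.3) and 48.7 (47.7 to 49.6). The disulfide reductase Dnajc10 (51.9 and 89.0) and the degradation lectin Os9 (58.2 and 89.3) were the others. With TMM factors 1 of the 5 (Ern1, -0.60) still passed 1.5-fold, and with length correction 0 did.

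Of the integrated stress response targets, 5 of 10 measured (14 listed) were above 0 and 5 below, with a median log2 ratio of 0.08. Read against the median of all genes, 7 of the 10 were above it. With TMM factors, RLE factors or length correction, 8 were above 0 and 2 below. TMM and RLE factors also moved the median of all genes, to 0.10 and 0.09. At 1.5-fold or more, 2 were higher and 0 lower, beside 2.33% and 17.3% of all genes. Nupr1, a small chromatin protein induced by stress, had 74.7 CPM (73.6 to 75.8) with THP and 37.5 (36.7 to 38.4) with vehicle, a ratio of 0.98. Atf3, a transcription factor downstream of Atf4 and of inflammatory signals, had 63.5 (62.5 to 64.6) and 40.8 (40.0 to 41.7), a ratio of 0.63. The cystine transporter Slc7a11 had 12.6 (12.1 to 13.1) and 8.62 (8.23 to 9.03), a ratio of 0.50. It passed 1.5-fold with TMM factors (0.76) and with length correction (1.06). The proline synthesis enzyme Aldh18a1 (8.82 and 12 CPM) had a ratio of -0.41 and Cebpg (42.9 and 52.6) of -0.29. With TMM factors these 2 ratios were -0.15 and -0.0097, and with length correction -0.18 and 0.063.

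Heat shock factors and other cytosolic co-chaperones showed 0 genes higher and 3 lower of 21 measured (25 listed), with a median log2 ratio of -0.14, beside 2.33% and 17.3% of all genes. The 3 were the immunophilin Fkbp5 (18.2 and 34.2 CPM, ratio -0.88), the Hsp110 relative Hspa4l (20.5 and 34, ratio -0.70) and the transcription factor Hsf2 (10.4 and 16.5, ratio -0.61). Only Fkbp5 still passed 1.5-fold with TMM factors (-0.60) and with length correction (-0.62), which moved Hspa4l to -0.13. All 7 measured subunits (8 listed) of TRiC, the cytosolic chaperonin that folds actin and tubulin, stayed within 1.5-fold, with a median of -0.04. Cct2 was the lowest at 242 (240 to 244) and 274 CPM (271 to 276), a ratio of -0.18, and Cct3 the highest at 180 and 177, a ratio of 0.03. Mitochondrial protein quality control had 1 of 9 lower, the unfoldase Clpx (23.3 and 35.9 CPM, ratio -0.60), beside 17.3% of all genes, and a median of -0.23. Clpx did not pass 1.5-fold with TMM factors (-0.33) or with length correction (-0.46).

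Immediate early genes, which enzymatic detachment of cells can raise, differed between the libraries in both directions. Of 11 measured (12 listed), 2 were at least 1.5-fold higher with THP, Ier3 (102 and 35.5 CPM, ratio 1.5) and Junb (155 and 87.5, ratio 0.82), and 1 was lower, Fosb (5.47 and 13.7, ratio -1.18). Of all genes, 2.33% were higher and 17.3% lower. With TMM or RLE factors 5 were higher (Ier3, Junb, Zfp36, Jund and Dusp1) and 1 lower, beside 6.86% and 5.8% of all genes with TMM, and with length correction 3 and 1. Zfp36 had a ratio of 0.55 and Egr1 of -0.37. Their part in the chaperone ratios was not tested.

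Marker gates split the cells into 10 types by fixed marker genes, and 7 gates held at least 100 cells in each library. Macrophage-gate cells numbered 3297 with THP and 2076 with vehicle, and within that gate all 9 macrophage markers were above their level over all cells in both libraries. Those markers set the gate, so their excess largely follows from the selection and is no check of it. In other gates, Fn1 had 62.2 CPM in vehicle monocytes against 62.9 over all vehicle cells. Igll1 had 0 CPM in the B-lineage gate of both libraries. No gate was assigned to 3339 THP cells (27.5%) and 2346 vehicle cells (21.4%), of which 66.8% and 65.0% lay near a threshold of the gate. Ratios within a gate compare like-gated cells, although the cells of a gate may still differ in makeup.

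In the macrophage gate the pattern was that of the whole culture. The ER median log2 ratio was -0.25 and the cytosolic median -0.08. Hspa5 had 715 CPM (709 to 721) with THP and 979 (970 to 987) with vehicle, and Hsp90b1 794 (788 to 800) and 1056 (1047 to 1064). Calr was equal at 790 (784 to 796) and 795 (787 to 802). In this gate 1 of 31 measured members was at least 1.5-fold higher (Herpud1) and 1 lower (Hspa4), beside 2.39% of genes higher and 15.9% lower. The counts higher and lower were 1 and 2 in monocytes (2.05% and 16.9% of genes), 1 and 4 in antigen-presenting cells (2.87% and 22.8%), 1 and 4 in osteoclast-like cells (1.65% and 17.1%) and 0 and 3 in myeloid progenitors (2.87% and 16.3%).

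Across the 7 gates, some members kept their side of 0 throughout. The median of all genes was itself below 0 in each gate, from -0.44 in mature neutrophils to -0.16 in monocytes. Ratios below 0 are best read against it, and the share of all genes that kept their side is not given. Hspe1 was above 0 in 7 of 7 gates, with ratios from 0.23 in osteoclast-like cells to 0.78 in immature granule neutrophils, and Manf in 7 of 7, from 0.14 in progenitors to 0.76 in mature neutrophils. Hspa4 was below 0 in 7 of 7, from -0.90 to -0.55, as were Canx, from -0.66 to -0.31, and Pdia3, from -0.66 to -0.27. Hspa5 was below 0 in 6 gates, from -0.57 to -0.05, and had 222 CPM (198 to 248) with THP and 203 (181 to 226) with vehicle in mature neutrophils, where the intervals overlapped.

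**Figure D3:**
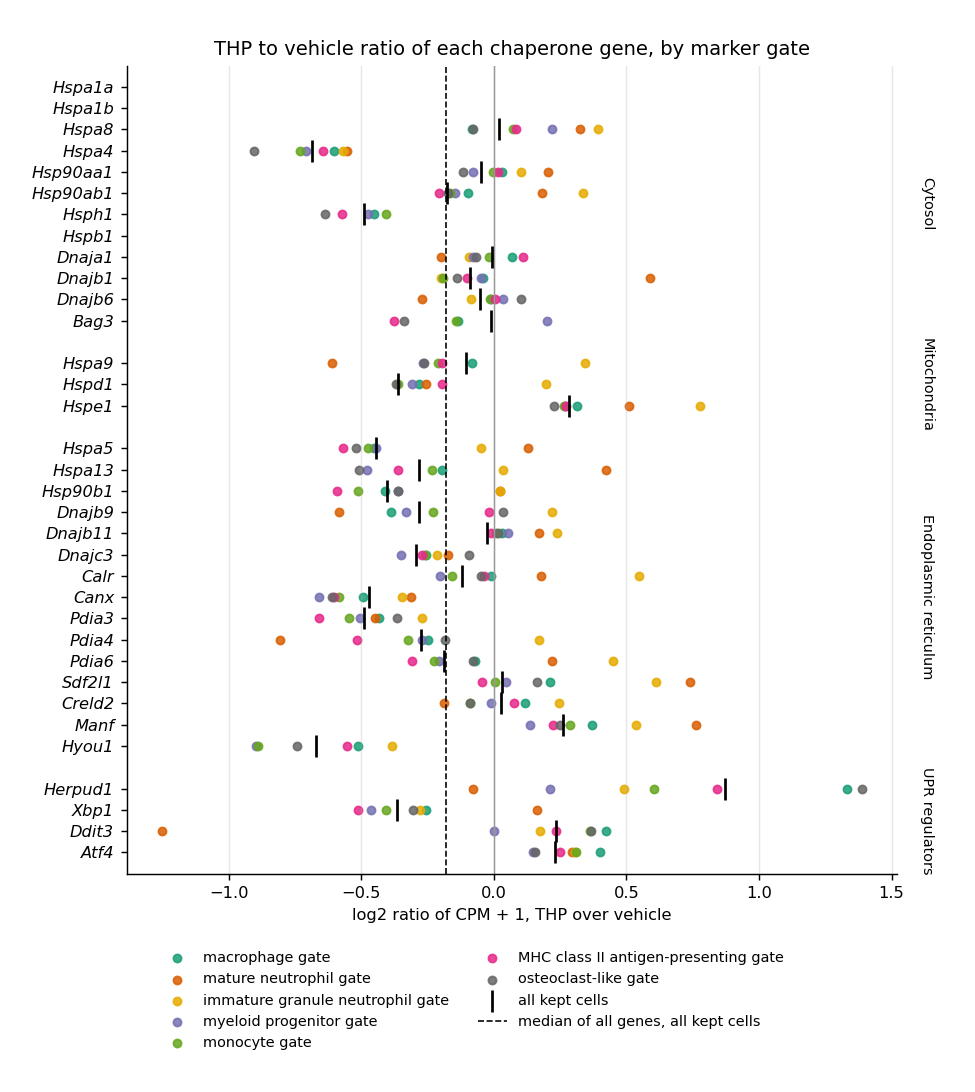
Log2 ratio of CPM + 1, THP over vehicle, for each gene that reached 10 CPM in a gate (coloured points, 1 per gate) and over all kept cells (black bars), with the median of all genes as a dashed line. Herpud1 spreads from -0.08 to 1.39, the ER genes lie mostly left of 0, and both neutrophil gates lie to the right of the other gates for many ER genes.

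The ratio of Herpud1 varied widely between gates. In the macrophage gate it had 104 CPM (102 to 106) with THP and 40.8 (39.1 to 42.5) with vehicle, a log2 ratio of 1.33, and in the osteoclast-like gate 63.4 (59.5 to 67.4) and 23.6 (21.3 to 26.0), a ratio of 1.39. After thinning to 5000 UMIs, 39.0% of macrophage-gate cells had a Herpud1 UMI with THP and 17.4% with vehicle. The ratio was 0.84 in MHC class II antigen-presenting cells, 0.60 in monocytes, 0.49 in immature granule neutrophils and 0.21 in myeloid progenitors. In mature neutrophils the values were 68.6 CPM (55.3 to 84.0) and 72.5 (60.0 to 86.8), with overlapping intervals. The vehicle level was lowest in the 2 gates with the largest ratios, which in part follows from dividing by that level. The THP levels also differed between gates. Those of the macrophage, progenitor and antigen-presenting gates lay between 94.4 and 105 CPM. The osteoclast-like gate had the lowest THP level, at 63.4 CPM, and mature neutrophils had 68.6. After thinning, the THP mean was 0.37 UMIs per cell in monocytes and 0.55 in the macrophage gate. Whether the ratios differ between gates has no test here, since each gate has 1 sum per library.

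The ratio of Ddit3 covered a wider range still, from -1.25 to 0.42. It had its highest level in mature neutrophils and was lower there with THP, at 74.5 CPM (60.6 to 90.5) from 101 UMIs against 179 (159 to 200) from 291 UMIs, a log2 ratio of -1.25. In the macrophage gate it ran the other way, at 43.4 (42.0 to 44.8) and 32.1 (30.6 to 33.7), a ratio of 0.42. The mature neutrophil gate was shallow, with medians of 2052 and 1806 UMIs per cell, and 41.5% of its genes were at least 1.5-fold lower and 7.52% higher with THP. Of its 28 measured members, 3 were higher (Dnajb1, Sdf2l1 and Manf) and 3 lower (Hspa9, Pdia4 and Ddit3). Of these 6, the intervals of the ratio excluded 0 for Sdf2l1, Manf and Ddit3.

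**Figure D4:**
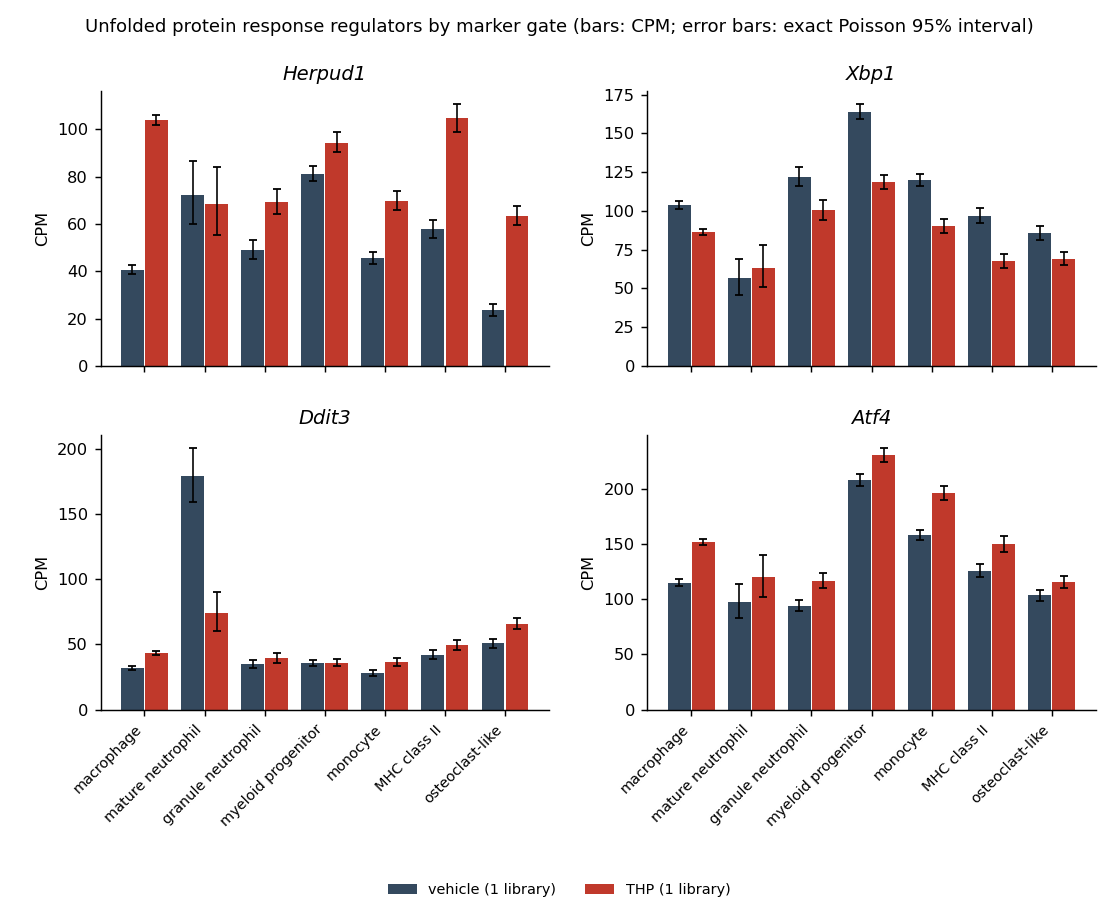
CPM of the 4 UPR regulators in the vehicle library (dark bars) and the THP library (red bars) in each of 7 marker gates, with exact Poisson 95% intervals for counting error; each panel has its own axis from 0. Herpud1 is higher with THP in 6 gates, Atf4 in all 7, Xbp1 is lower in 6, and Ddit3 has its tallest vehicle bar in mature neutrophils.

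The ER median was below the cytosolic median in 5 of 7 gates. The difference was -0.25 in progenitors, -0.21 in antigen-presenting cells, -0.17 in macrophages, -0.10 in mature neutrophils and -0.09 in monocytes. It was 0.05 in osteoclast-like cells and 0.26 in immature granule neutrophils. In the latter gate Calr had 249 CPM (239 to 259) with THP and 170 (163 to 178) with vehicle, Sdf2l1 80.1 (74.6 to 85.9) and 52.0 (48.2 to 56.1), and Hsp90b1 329 (317 to 340) and 323 (314 to 333). There, 2 of 29 measured members were at least 1.5-fold higher (Hspe1 and Sdf2l1) and 0 lower, beside 5.63% and 22.4% of genes. These differences depended on the gating: in immature granule neutrophils the value was 0.066 after thinning, in osteoclast-like cells 0.0064 under the stricter gate and 0.017 after thinning, and in mature neutrophils -0.0066 under the stricter gate.

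The summed UMIs gave a view weighted towards the abundant members. Over all kept cells there were 0.872 ER chaperone UMIs per cytosolic UMI with THP (0.870 to 0.874) and 0.967 with vehicle (0.964 to 0.969). The macrophage gate gave 0.928 and 1.02, progenitors 1.00 and 1.14, monocytes 0.727 and 0.841, antigen-presenting cells 0.841 and 1.01 and osteoclast-like cells 0.791 and 0.838. Immature granule neutrophils gave 0.820 (0.804 to 0.837) and 0.872 (0.856 to 0.888), lower with THP although the median ratio of the ER genes there was the higher one. Mature neutrophils gave 0.694 (0.647 to 0.745) and 0.727 (0.680 to 0.777), with overlapping intervals.

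**Figure D5:**
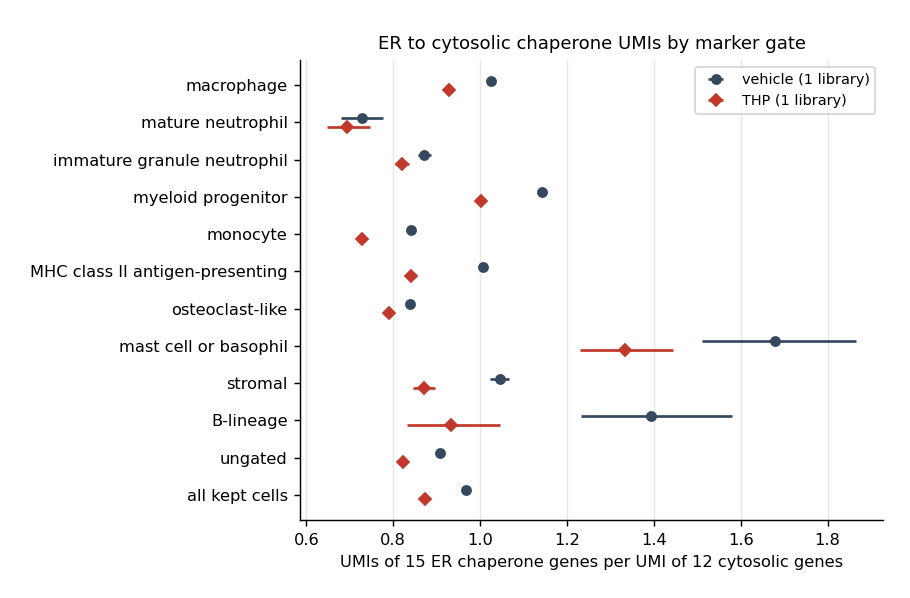
UMIs of the 15 ER chaperone genes per UMI of the 12 cytosolic genes in each gate, in the ungated cells and over all kept cells, for the vehicle library (circles) and the THP library (diamonds), with 95% intervals for counting error. The THP value lies left of the vehicle value in every gate, with overlapping intervals in mature neutrophils.

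The gate with the highest level was the same in both libraries for most members. Of the 34 members, 25 had the same highest gate with THP and with vehicle. The share of all genes that did so is not given. For many of the 25 it was a small gate left out of the ratios. The stromal gate was highest for 4 cytosolic members, 2 mitochondrial members and 1 ER member. The B-lineage gate was highest for 3 ER members and 2 UPR regulators. The mast cell or basophil gate was highest for 1 cytosolic and 1 ER member. Among the larger gates, 5 ER members (Dnajb11, Dnajc3, Calr, Sdf2l1 and Manf) were highest in myeloid progenitors, the gate marked by the granule enzymes Mpo and Elane. Calr had 1522 CPM (1505 to 1539) there with THP and 1752 (1736 to 1767) with vehicle, against 170 (148 to 193) and 150 (132 to 170) in mature neutrophils. Hsp90ab1 had 2780 and 3080 CPM in progenitors and 383 and 338 in mature neutrophils. Canx was highest in macrophages, at 302 and 426 CPM. Xbp1, which plasma cell development requires, was highest in the B-lineage gate, at 196 CPM with THP and 443 with vehicle, from only 58 and 31 cells. For many members the first and second gates in this order did not differ beyond counting error, as for Hspa5 with THP, at 771 CPM in stromal cells and 748 (736 to 760) in progenitors.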

How the data were processed

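UMI counts per gene and cell barcode were used as deposited (software version 3.1.0, per the file headers). Cell Ranger, bcl2fastq, STAR and build mm10 are named in the submitters' processing notes. The deposited gene symbols and barcodes were used as text labels. Barcodes with at least 1000 UMIs, at least 500 genes and at most 10% mitochondrial UMIs were kept. Doublets were not called or removed, and free RNA was not removed.

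UMIs were summed per library or gate and expressed as CPM with exact Poisson 95% intervals. Folds have exact conditional binomial intervals, and shares of cells have exact Clopper-Pearson intervals. The log2 ratio is that of CPM + 1, which understates the change of low genes. A gene was counted with at least 10 CPM in 1 library and a 1.5-fold ratio (2-fold also given). No p-value was computed, as each group had 1 library. TMM and RLE factors came from edgeR 4.0.16 in R 4.3.3. Transcript lengths were those of the longest GENCODE M21 transcript of GRCm38, and the length trend was a lowess curve (statsmodels 0.14.6, fraction 0.3). The calculation was tested on simulated data.

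For the gates, a cell's score per type was the mean log of UMIs per 10000 over its markers, divided by the 99.9th percentile over all kept cells. A cell took the type with the highest score if that was at least 0.3 and led the next by 0.1 (stricter gate: 0.5 and 0.15). These thresholds were set after the marker distributions were seen and before chaperones were looked at in gates. Cells within 0.05 of a threshold were counted as near it. Markers, members and pathway lists were chosen with earlier results of these data known. All 34 members are described, and of each pathway list up to 5 measured genes with the largest ratio by size are named where a result turns on them. Alternatives were TMM, RLE, a pseudocount of 0.1, all deposited barcodes, at most 5% mitochondrial UMIs, removal of the 5% of cells with most UMIs, equal weight per cell, the same mix of gates, length correction, a 1 CPM minimum, the stricter gate, and cells thinned to 5000 UMIs. The mean in place of the median, and leaving out the cell richest in Hspa1a or Hspa1b, were added after seeing the data.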

Additional observations from a re-analysis of the deposited data

Results flagged for a closer look

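The barcodes that failed the cell filter, 1070 with THP and 606 with vehicle, are used in no comparison, and 3 groups stood higher there with THP than with vehicle. The cytosolic members summed to 3437 CPM (3362 to 3514) against 2851 (2764 to 2940), the mitochondrial members to 638 (605 to 671) against 555 (517 to 595), and the UPR regulators to 433 (406 to 460) against 358 (328 to 390). In the same barcodes the ER chaperones summed to 5697 CPM (5600 to 5796) against 7276 (7137 to 7417), the opposite direction.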

How the results depend on the processing

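The difference between the ER and cytosolic medians, -0.23, lay between -0.24 and -0.20 under all 9 processing alternatives. TMM and RLE factors nearly cancel in this difference, so those alternatives could hardly move it. With the mean in place of the median, chosen after seeing the data, it was -0.071, and between -0.16 and -0.057 under the same 9. The number of gates with a higher ER median was 2 under each of its alternatives, with 6 gates left after thinning. The group medians themselves depended on scaling. With TMM factors they were 0.23 for the cytosolic group, -0.0076 for the ER group, 0.18 for the mitochondrial group and 0.51 for the UPR regulators, and with RLE factors 0.23, -0.014, 0.17 and 0.51, by the construction of factors that move the median of all genes to 0.10 and 0.09. With equal weight per cell they were -0.024, -0.24, -0.00071 and 0.11. With length correction they were 0.083, -0.16, 0.066 and 0.17. With the same mix of gates the cytosolic median was -0.081 and the mitochondrial one -0.15, and the cause was not tested. The count of members at least 1.5-fold higher was 3 with a minimum of 1 CPM, which adds Hspa1a and Hspa1b, and 0 at 2-fold. The count lower was 0 with TMM factors, RLE factors, length correction or the 2-fold rule. Of the 34 members, 12 changed sign with TMM, 12 with RLE, 11 with length correction, 6 with equal weight per cell, 3 with the same mix of gates and 1 without the top 5% of cells. The same highest gate in both libraries was found for 21 members under the stricter gate and 22 after thinning, against 25. No paired analysis was possible because each group had 1 library. Depth limits the mature neutrophil gate most, where several ratios past 1.5-fold rest on fewer than 50 UMIs per library.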
